A study of Mus musculus with 69 samples.

Results

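The genes described here encode the subunits of voltage-gated calcium and sodium channels and were chosen by symbol: every mouse gene whose name begins with Cacna, Cacnb or Cacng, and every Scn gene with a number followed by a or b. The rule found 40 of the 52636 genes in the count table, and used no measured value. Of these, 34 passed the filter on low counts and were tested among 14016 genes. RNA and chromatin came from the nucleus accumbens, the ventral part of the striatum, of male mice. RNA was sequenced in 4 groups of 8 libraries. The condition label was Standard or ELS (early life stress), and the genotype label was GFP, Dot1l overexpression or Dot1l knockdown. The groups were Standard GFP, ELS GFP, Standard Dot1l overexpression and ELS Dot1l knockdown, with GFP (green fluorescent protein) as the control in each condition. The sources used here do not give the age of the mice, the stress protocol, how Dot1l was manipulated or in which cells. The series' design text names D2-type medium spiny neurons, while the RNA protocol names whole tissue. Chromatin carrying dimethylated lysine 79 of histone H3 (H3K79me2), the mark laid down by the enzyme Dot1l, was deposited as 1 annotated peak list for Standard and 1 for ELS mice, from 9 immunoprecipitated libraries each.

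A voltage-gated calcium channel is built on a pore subunit (alpha1, Cacna1 genes), which opens when the membrane depolarizes, together with an extracellular alpha2delta subunit (Cacna2d genes) and a cytoplasmic beta subunit (Cacnb genes), both of which promote delivery of the pore to the membrane. A voltage-gated sodium channel has a single pore subunit that produces the upstroke of the action potential, and beta subunits (Scn genes ending in b) that alter its gating and anchoring. Most brain members of the Cacng family act instead as transmembrane AMPA receptor regulatory proteins (TARPs), which traffic glutamate receptors. In medium spiny neurons, the projection neurons of the striatum, L type calcium channels shape the depolarized state, and Scn4b is known as a gene enriched in the striatum. H3K79me2 is found along transcribed gene bodies, mostly towards their start.

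Promoter windows from RefSeq, 250 bases before to 50 after an annotated start on GRCm38.p6 (whose chromosomes are those of mm10), were held for 30 of the 40 genes, with 41 windows in all. An H3K79me2 peak overlapped a window by at least 10 bases at 6 of the 41 in the Standard list and at 2 of the 41 in the ELS list. Over all 32851 RefSeq windows the shares were 5.27% and 3.6%. The 6 windows under a Standard peak by this overlap rule are shown. Starts outside the 6 could still lie close to a Standard peak, the nearest being Cacnb1 (0.049 and 0.066 kb) and Cacna1b (0.155 kb). The first and second were under a peak in both lists and the other 4 in the Standard list alone. Capitals mark a TATA box (TATAAA) or a GC box (GGGCGG), searched on both strands, and adjoining or overlapping copies run together.
Scn8a, inner start, chr15:100936021-100936320, plus strand: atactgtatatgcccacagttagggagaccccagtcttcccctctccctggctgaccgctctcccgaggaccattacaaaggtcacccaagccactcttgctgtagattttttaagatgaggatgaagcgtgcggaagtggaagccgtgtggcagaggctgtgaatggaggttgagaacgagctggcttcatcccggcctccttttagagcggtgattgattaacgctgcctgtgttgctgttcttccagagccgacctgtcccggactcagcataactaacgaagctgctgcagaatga
Cacnb2, inner start, chr2:14823842-14824141, plus strand: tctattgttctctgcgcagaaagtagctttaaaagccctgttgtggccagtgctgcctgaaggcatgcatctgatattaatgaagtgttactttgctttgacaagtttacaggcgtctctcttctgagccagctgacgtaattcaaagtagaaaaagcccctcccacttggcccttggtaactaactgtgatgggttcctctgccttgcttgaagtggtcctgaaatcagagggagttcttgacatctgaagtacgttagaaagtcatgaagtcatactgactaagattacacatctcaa
Cacnb2, outer start, chr2:14604056-14604355, plus strand: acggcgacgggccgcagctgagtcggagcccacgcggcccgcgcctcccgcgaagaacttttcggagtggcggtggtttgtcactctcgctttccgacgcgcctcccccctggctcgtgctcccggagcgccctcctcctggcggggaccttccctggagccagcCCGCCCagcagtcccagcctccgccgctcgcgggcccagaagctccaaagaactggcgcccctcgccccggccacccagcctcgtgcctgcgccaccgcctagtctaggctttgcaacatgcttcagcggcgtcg
Cacnb4, chr2:52675810-52676109, minus strand: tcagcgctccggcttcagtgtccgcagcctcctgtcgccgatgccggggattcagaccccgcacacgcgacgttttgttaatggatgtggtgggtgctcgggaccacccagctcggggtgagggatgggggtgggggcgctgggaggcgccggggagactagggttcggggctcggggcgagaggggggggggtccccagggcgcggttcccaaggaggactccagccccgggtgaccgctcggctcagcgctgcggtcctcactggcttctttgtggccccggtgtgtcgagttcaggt
Cacna1d, outer start, chr14:30491107-30491406, minus strand: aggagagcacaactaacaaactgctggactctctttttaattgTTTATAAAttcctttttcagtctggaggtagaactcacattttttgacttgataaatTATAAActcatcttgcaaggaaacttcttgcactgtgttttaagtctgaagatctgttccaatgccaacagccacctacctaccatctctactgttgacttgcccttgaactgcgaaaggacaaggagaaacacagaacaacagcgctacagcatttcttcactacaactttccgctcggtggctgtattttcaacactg
Cacna1e, chr1:154725871-154726170, minus strand: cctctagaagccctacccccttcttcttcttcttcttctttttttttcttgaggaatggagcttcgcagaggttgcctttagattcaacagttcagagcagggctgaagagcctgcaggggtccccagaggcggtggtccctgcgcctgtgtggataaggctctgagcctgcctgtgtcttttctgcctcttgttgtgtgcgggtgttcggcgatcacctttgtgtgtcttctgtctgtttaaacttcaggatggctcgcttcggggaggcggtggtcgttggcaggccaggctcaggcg
A TATA box was present in 2 of the 41 channel windows (4.88%) against 13.6% of all windows, and a GC box in 16 of 41 (39%) against 35.7%. The cAMP response element TGACGTCA was found in none of the 41, against 1.79% of all windows. Among the windows shown, the outer Cacna1d window held the TATA boxes and the outer Cacnb2 window a GC box, and the other 4 windows held neither. The inner Cacnb2 window had 4 CpG dinucleotides and the outer one 35, so the window under a peak in both lists was the CpG-poor one. An ELS peak lay 0.233 kb from the outer Cacnb2 start, outside its window. These matches describe the letters of the windows only.

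Library sizes ran from 0.314 to 11.1 M counts (M, 1e+06), and 4 libraries had fewer than 1 M, namely Standard GFP replicates 1, 4 and 5 and ELS Dot1l knockdown replicate 7. The composition factor (TMM) that scales each library size was 0.53 in Standard Dot1l overexpression replicate 1 and 0.565 in Standard GFP replicate 6, and 0.827 to 1.55 in the other libraries, so CPM in those 2 libraries are raised the most over counts per plain library size. Dot1l itself was at 33.9 ± 10.8 CPM (counts per 1e+06 counts of the library, normalized for library composition) in Standard GFP, 35.6 ± 11.4 in ELS GFP, 43.1 ± 19 in Standard Dot1l overexpression and 43.1 ± 15.2 in ELS Dot1l knockdown libraries (SD, n = 8 each). The Dot1l log2 fold change was 0.33 (SE 0.27) with overexpression, with adjusted p = 0.741, and 0.28 (SE 0.27) with knockdown, with adjusted p = 0.985 (edgeR quasi-likelihood test). The mean thus lay above its control in the libraries labelled knockdown, against their label, and the comparisons below are of libraries as labelled. Markers of medium spiny neurons were detected in every group, 11 of 11, with summed levels of 641 to 3017, 670 to 2268, 586 to 3095 and 637 to 1843 CPM in the groups in the order above. All 4 markers of cortical pyramidal neurons, which the accumbens lacks, were also detected, summing to between 61.5 and 486 CPM. Gfap and P2ry12, defining markers of astrocytes and microglia, were at 0 in all 32 libraries although the other 4 of 5 astrocyte and 3 of 4 microglial markers had counts. In tissue RNA, fewer cells of a type and less RNA per cell cannot be told apart.

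No channel gene passed an adjusted p of 0.05 in any comparison by edgeR, where 0% of the 14016 genes did, and none of those with an adjusted p passed by DESeq2 in the 3 main comparisons. DESeq2 gave 3 of the 34 genes, Cacng8, Scn7a and Scn11a, no adjusted p between ELS and Standard GFP. At an unadjusted p under 0.05, 4 of the 34 channel genes (11.8%) passed between ELS GFP and Standard GFP, against 11.7% of all genes tested. With Dot1l overexpression 1 of 34 (2.94%) passed against 10.9% of all genes, and between the libraries labelled Dot1l knockdown and ELS GFP 1 of 34 (2.94%) passed against 6.18%. By direction, 2 of 34 were lower and 2 higher between ELS and Standard GFP (7.73% and 4% of all genes). With overexpression 1 was lower and 0 higher (6.28% and 4.59%), and with knockdown 1 was lower and 0 higher (3.95% and 2.23%). The share between ELS and Standard mice was therefore that of the background, and the other 2 shares were below it. The 5 gene-by-comparison results in ELS and overexpression libraries involved Cacng2, Scn1a, Scn7a and Scn4b, and the knockdown result was again Scn1a. None of the 34 genes had groups that did not overlap in any comparison, where 0.00713%, 0% and 0.0143% of all genes did in these 3 comparisons.

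The median log2 fold change over the 34 genes was -0.08 between ELS and Standard GFP (19 lower and 15 higher) beside -0.01 over all genes, of which 51.2% were lower. It was -0.07 with Dot1l overexpression (19 lower and 15 higher) beside 0.02 and 48.5% lower, and -0.06 between the libraries labelled Dot1l knockdown and ELS GFP (21 lower and 13 higher) beside 0 and 49.8% lower. For scale, the median deviation of the 34 genes in a single library had an SD of 0.23 on the log2 scale. That SD is of single libraries and not the error of a difference between groups of 8, and the medians were not tested. The summed level of the 40 genes was 3431 ± 630 CPM in Standard GFP, 3328 ± 691 in ELS GFP, 3322 ± 1046 in Standard Dot1l overexpression and 3162 ± 472 in ELS Dot1l knockdown libraries (SD, n = 8 each).

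**Figure D1:**
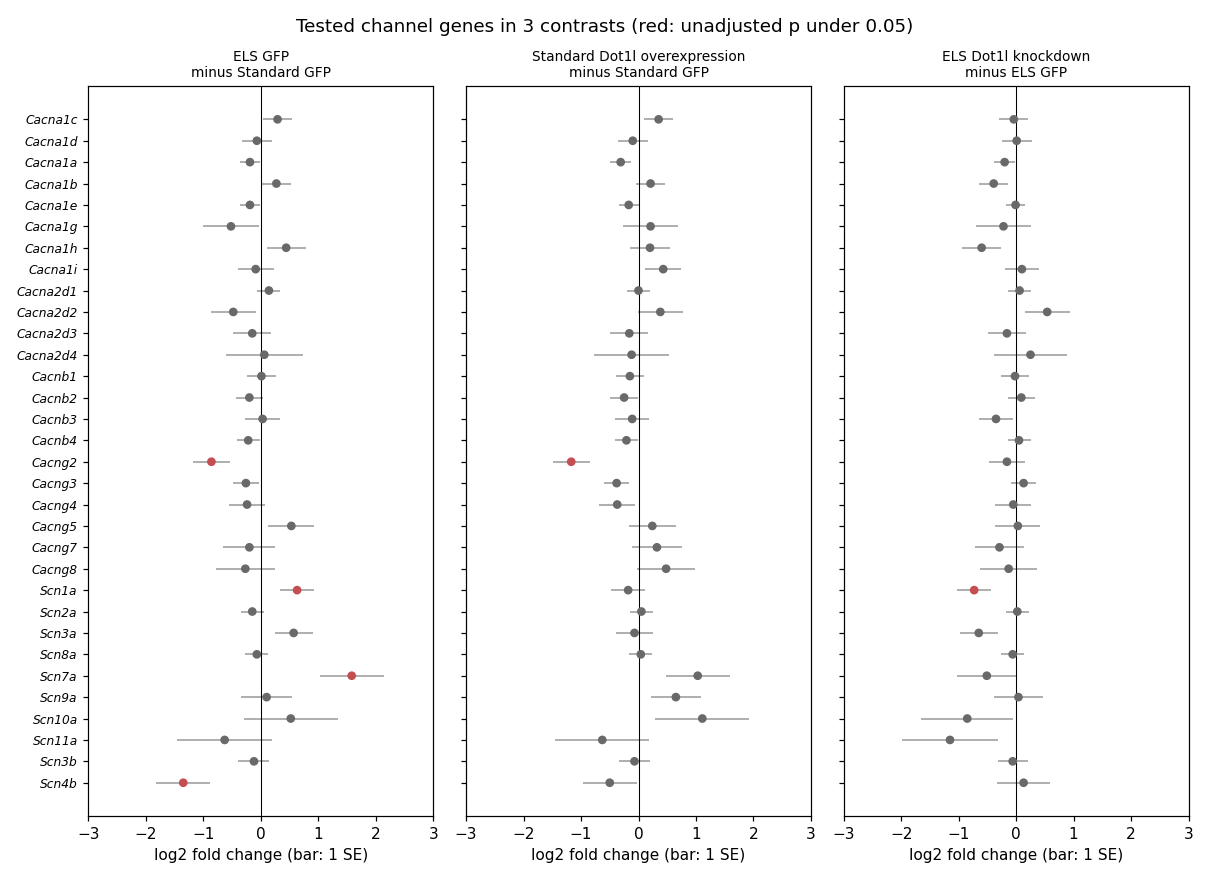
Log2 fold changes (x axis, points, with bars of 1 SE) of 32 of the 34 tested channel genes (y axis) in the 3 main comparisons of 8 against 8 libraries. Red points have an unadjusted p under 0.05: 4 genes between ELS and Standard GFP, Cacng2 with Dot1l overexpression and Scn1a between knockdown and ELS GFP libraries, and none passed after adjustment.

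Among the L type pore genes, Cacna1c and Cacna1d, which encode Cav1.2 and Cav1.3, were tested. Cacna1c ran from 298 over a median of 423 to 551 CPM in Standard GFP, from 302 over 427 to 977 in ELS GFP, from 314 over 438 to 1317 with Dot1l overexpression, and from 383 over 438 to 969 in the knockdown libraries. The medians lay between 423 and 438 CPM, and the high values came from a single library each in the last 2 groups. In overexpression replicate 1 it was 696 per 1e+06 counts by plain library size, against 611 in the next library. Log2 fold changes of Cacna1c were 0.29 (SE 0.25, adjusted p = 0.739) for ELS, 0.35 (SE 0.25, adjusted p = 0.69) for overexpression and -0.04 (SE 0.25, adjusted p = 0.998) for knockdown by edgeR. The L type genes of retina and skeletal muscle, Cacna1f and Cacna1s, had 185 and 241 counts over all 32 libraries and did not pass the filter on low counts.

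The pore genes of P/Q, N and R type channels, Cacna1a, Cacna1b and Cacna1e, open at strong depolarization and supply the calcium that triggers transmitter release. Cacna1e, the R type gene, ran from 353 over a median of 402 to 768 CPM in Standard GFP and from 330 over 378 to 506 in ELS GFP. It ran from 285 over 379 to 615 with overexpression and from 289 over 391 to 536 in the knockdown libraries. Of the 8 libraries in each, 3 of ELS GFP and 3 of overexpression lay below the lowest Standard GFP library and none above its highest. That highest library was replicate 6, with a composition factor of 0.565, and the next was at 500 CPM. Its log2 fold changes were -0.19 (SE 0.17), -0.17 (SE 0.17) and -0.01 (SE 0.17), all with adjusted p of 0.743 or more by edgeR. Cacna1a, the P/Q type gene, had 175 CPM in the knockdown libraries against 229 in Standard GFP, a log2 difference of -0.39 (SE 0.18) with unadjusted p = 0.0355 and adjusted p = 0.409. That comparison differs in both condition and genotype label. In it 4 of 34 channel genes had an unadjusted p under 0.05, all lower (10.8% of all genes, 7.7% lower and 3.11% higher), and 25 of 34 were lower, against 51.9% of all genes.

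The T type pore genes Cacna1g, Cacna1h and Cacna1i open near rest and support burst firing. Cacna1i ran from 34 over a median of 52.9 to 100 CPM in Standard GFP, from 34.9 over 46 to 71.3 in ELS GFP, from 41.1 over 47.8 to 239 with overexpression, and from 36.8 over 51.5 to 83.6 in knockdown libraries. The overexpression mean of 73.3 CPM lay above all its libraries but replicate 1, the next being at 61.3. The same replicate held 59.2% of the Cacna1g signal of its group, at 294 CPM, or 41.8% and 155 per 1e+06 counts by plain library size. Log2 fold changes of the 3 genes lay between -0.6 and 0.44 in the 3 main comparisons and none passed.

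Among the alpha2delta genes, Cacna2d1 and Cacna2d2 encode the binding sites of gabapentin, and Cacna2d3 belongs to the same family. Cacna2d3 ran from 184 over a median of 237 to 744 CPM in Standard GFP, from 110 over 224 to 718 in ELS GFP, from 148 over 240 to 531 with overexpression, and from 115 over 206 to 463 in knockdown libraries. Below the lowest Standard GFP library lay 2 ELS GFP and 3 overexpression libraries, and none lay above its highest, replicate 8, where the next was at 303 CPM. The log2 fold changes were -0.15, -0.16 and -0.16 (SE 0.33 each). Cacna2d2 was at 52.9 ± 55 CPM with overexpression against 29 ± 7.21 in ELS GFP (SD, n = 8 each), a log2 difference of 0.86 (SE 0.39) with adjusted p = 0.657 by edgeR, in a comparison where 6.68% of all genes had an unadjusted p under 0.05 (2.55% lower and 4.12% higher). In that comparison 2 of 34 channel genes passed, 1 in each direction, and 20 of 34 were lower, against 46.8% of all genes. Replicate 1 held 42.2% of the Cacna2d2 signal of the overexpression group (27.1% by plain library size), and the medians were 28.4 and 28.8 CPM.

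Among the beta subunit genes, Cacnb4 ran from 139 over a median of 219 to 322 CPM in Standard GFP, from 138 over 182 to 249 in ELS GFP, from 128 over 184 to 284 with overexpression, and from 119 over 195 to 267 in knockdown libraries. Its log2 fold changes were -0.22, -0.21 and 0.05 (SE 0.2 each), and none of the 4 beta genes passed in any main comparison. All 4 had a log2 fold change below 0 with Dot1l overexpression, from -0.25 to -0.11, in a comparison where 48.5% of all genes were below 0. The log2 ratios of group medians were 0.05 for Cacnb1, -0.07 for Cacnb2, 0.01 for Cacnb3 and -0.25 for Cacnb4, so not all were lower by medians.

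In the Cacng family, Cacng2 encodes stargazin, the TARP named after the stargazer mouse. Cacng2 ran from 41.7 over a median of 55.4 to 372 CPM in Standard GFP, from 43.1 over 51.4 to 86.5 in ELS GFP, from 35.8 over 41.7 to 60.3 with overexpression, and from 37.1 over 51.5 to 66.7 in knockdown libraries. Standard GFP replicate 6, at 372 CPM, held 45.7% of the signal of its group, and the second highest library of that group was at 120. By plain library size the values were 209 and 125 per 1e+06 counts. The log2 fold change was -0.86 (SE 0.32) for ELS, with unadjusted p = 0.00944 and adjusted p = 0.218, and -1.17 (SE 0.32) for overexpression, with unadjusted p = 0.000738 and adjusted p = 0.145. Without Standard GFP replicate 6 these became -0.15 (adjusted p = 0.915) and -0.45 (adjusted p = 0.547), both by edgeR. The log2 ratios of group medians were -0.11 and -0.41. Of the 8 overexpression libraries, 4 lay below the lowest Standard GFP library. Both comparisons share the Standard GFP libraries, as does that of the knockdown libraries with Standard GFP, where the Cacng2 log2 difference was -1.02 (SE 0.32, adjusted p = 0.178).

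Cacng3, the TARP with the most counts, ran from 44 over a median of 94.7 to 107 CPM in Standard GFP, from 44.9 over 69.1 to 99.8 in ELS GFP, from 41.3 over 70 to 77.6 with overexpression, and from 43.4 over 72.2 to 120 in knockdown libraries. Its log2 fold changes were -0.26 (SE 0.22), -0.38 (SE 0.22) and 0.13 (SE 0.22), with adjusted p of 0.727, 0.566 and 0.998. No ELS GFP library and 1 overexpression library lay below the lowest Standard GFP library. The muscle type gamma genes Cacng1 and Cacng6 had 61 counts and 1 count in all 32 libraries together and were not tested.

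**Figure D2:**
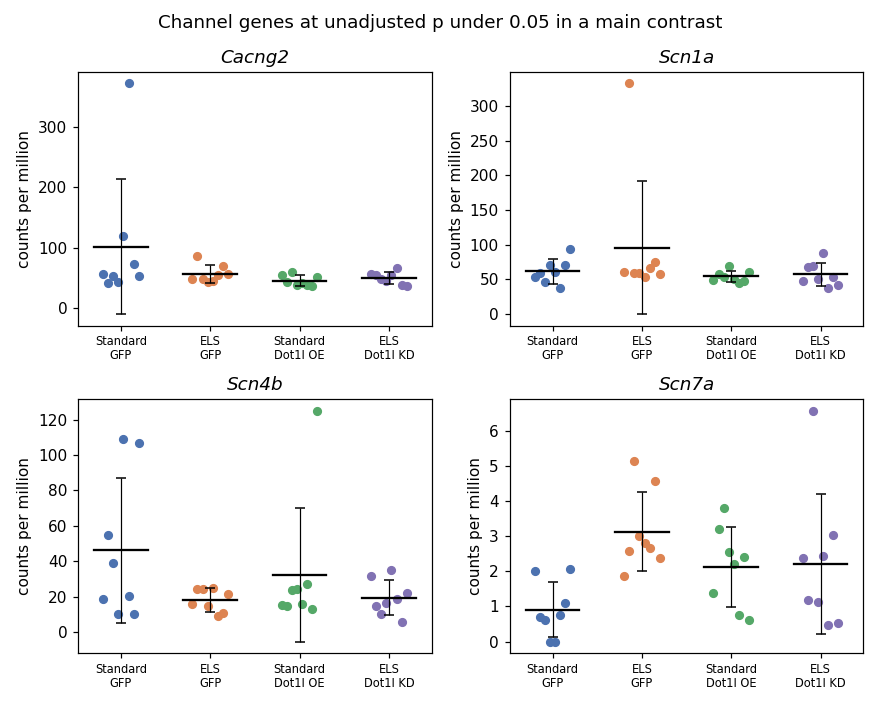
CPM (y axes) of the 4 channel genes with an unadjusted p under 0.05 in a main comparison, in each library (points) of the 4 groups, with the mean (line) and SD (bar, n = 8). Single libraries stand far above the rest for Cacng2 (372 in Standard GFP), Scn1a (333 in ELS GFP) and Scn4b (125 in overexpression), while Scn7a reaches at most 6.57 CPM. In Standard GFP, Scn4b is highest in replicates 5 and 8, at 109 and 107.

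The sodium pore genes of the brain are Scn1a, carried mainly by inhibitory interneurons, Scn2a and Scn8a, the main pores of projection neurons, and Scn3a, which is most used before birth. Scn8a ran from 103 over a median of 173 to 231 CPM in Standard GFP, from 105 over 148 to 266 in ELS GFP, from 103 over 166 to 303 with overexpression, and from 125 over 156 to 207 in knockdown libraries. Its log2 fold changes were -0.07, 0.04 and -0.06 (SE 0.2 each), and those of Scn2a were -0.15, 0.05 and 0.02 (SE 0.2 each). All 6 values were smaller than 1 SE.

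Scn1a ran from 37.2 over a median of 59.7 to 94.2 CPM in Standard GFP, from 53.1 over 60.5 to 333 in ELS GFP, from 44.9 over 52 to 68.9 with overexpression, and from 37.9 over 51.9 to 88.1 in knockdown libraries. ELS GFP replicate 2, at 333 CPM, stood above the next library of its group at 74.5, and held 43.5% of the group's signal. The log2 fold change was 0.63 (SE 0.3) between ELS and Standard GFP, with unadjusted p = 0.0408 and adjusted p = 0.393, and -0.73 (SE 0.29) between the knockdown libraries and ELS GFP, with unadjusted p = 0.0175 and adjusted p = 0.638. Without ELS GFP replicate 2 the values were 0.01 (adjusted p = 0.994) and -0.11 (adjusted p = 0.999), both by edgeR. The comparison of overexpression with ELS GFP libraries, which shares the ELS GFP libraries, gave -0.8 (SE 0.29, adjusted p = 0.44). The same library carried 249 CPM of Scn3a, against a group median of 43.8.

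Sodium pore genes outside the brain class gave few counts. Scn4a, the skeletal muscle pore gene, had 145 counts in all and was not tested.

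Scn7a encodes Nax, a sodium-level sensor of glia and ependymal cells. It ran from 0 over a median of 0.735 to 2.07 CPM in Standard GFP, from 1.86 over 2.73 to 5.15 in ELS GFP, from 0.607 over 2.31 to 3.81 with overexpression, and from 0.468 over 1.77 to 6.57 in knockdown libraries. All 8 ELS GFP libraries lay above the Standard GFP median and 7 of 8 above its highest library, and 2 Standard GFP libraries had no count. The log2 fold change between ELS and Standard GFP was 1.58 (SE 0.56), with unadjusted p = 0.00743 and adjusted p = 0.197 by edgeR. The counts behind it are 32 in Standard GFP, of which 3 libraries had under 1 M counts in all, and 153 in ELS GFP. Without the 4 libraries under 1 M counts the value was 1.53 (adjusted p = 0.321). For overexpression against Standard GFP it was 1.03 (SE 0.56, adjusted p = 0.519) and for knockdown against ELS GFP -0.51 (SE 0.51, adjusted p = 0.987). Summed endothelial and mural markers, of a cell type also present in the tissue, were 97.5 ± 30.3 CPM in ELS GFP and 75.9 ± 37.1 in Standard GFP, and summed astrocyte markers 361 ± 81.2 and 569 ± 212 (SD, n = 8 each). Their part in the Scn7a difference was not tested.

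The sensory neuron pores Scn10a and Scn11a were at a mean of 2.57 and 1.82 CPM over all libraries. Scn11a was at 0.774 CPM in knockdown against 2.77 in Standard GFP libraries, a log2 difference of -1.78 (SE 0.86) with adjusted p = 0.448. Standard GFP replicate 6 held 63.4% of the Scn11a signal of its group, at 14.1 CPM, or 49.3% and 7.93 per 1e+06 counts by plain library size.

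Scn4b, the beta subunit gene enriched in the striatum, ran from 10.3 over a median of 29.9 to 109 CPM in Standard GFP, from 9 over 18.7 to 25.2 in ELS GFP, from 13.1 over 19.9 to 125 with overexpression, and from 6.08 over 17.8 to 34.9 in knockdown libraries. All 8 ELS GFP libraries lay below the Standard GFP median, while the lowest Standard GFP libraries, at 10.3, overlapped the ELS range. The log2 fold change between ELS and Standard GFP was -1.35 (SE 0.47), with unadjusted p = 0.00738 and adjusted p = 0.196 by edgeR, from means of 18.3 and 46.4 CPM. Standard GFP replicates 5 and 8, at 109 and 107 CPM, stood above the next library of that group, replicate 2, at 55. Replicate 5 had 0.546 M counts in all. Replicates 5 and 8 also had the highest medium spiny neuron marker sums of the group, 2328 and 3017 CPM. The log2 ratio of the medians was -0.67. The knockdown libraries were at -1.22 (SE 0.47, adjusted p = 0.301) from the same Standard GFP libraries and at 0.13 (SE 0.46, adjusted p = 0.998) from ELS GFP.

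The Scn4b level moved with the markers of medium spiny neurons. Over the 32 libraries, with group means removed, log2 Scn4b correlated with the log2 sum of the 11 markers at Pearson r = 0.69 (permutation p = 0.00014, adjusted p = 0.0011) and Spearman rho = 0.58 (permutation p = 0.0014, adjusted p = 0.011). Without the 2 libraries farthest from the median marker sum, r was 0.61. Standard GFP replicates 5 and 8 and overexpression replicate 8 had Scn4b at 109, 107 and 125 CPM and marker sums of 2328, 3017 and 3095. Leaving out 2 libraries cannot remove all of these. In ELS GFP replicate 2 and knockdown replicate 6, with marker sums of 2268 and 1843, Scn4b was at 24.5 and 19 CPM. The medians of those groups were 18.7 and 17.8. With the pyramidal markers r was -0.42 (permutation p = 0.027, adjusted p = 0.11) and rho -0.36 (permutation p = 0.054, adjusted p = 0.14), and r was -0.32 without the 2 farthest libraries. The marker sum was 1517 ± 804 CPM in Standard GFP and 997 ± 528 in ELS GFP (SD, n = 8 each), and their part in the Scn4b difference was not tested.

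Of the other genes tested against the same markers, Cacng2 gave r = 0.37 (permutation p = 0.066, adjusted p = 0.14) and rho = 0.5 (permutation p = 0.0063, adjusted p = 0.025), with r = 0.32 without the 2 farthest libraries. Scn1a gave r = 0.32 (permutation p = 0.068, adjusted p = 0.14) and rho = 0.04 (permutation p = 0.83, adjusted p = 0.86), and r was -0.01 without the 2 farthest libraries. Scn7a gave r = -0.3 (permutation p = 0.09, adjusted p = 0.14) and rho = -0.28 (permutation p = 0.14, adjusted p = 0.22), and r was -0.19 without them. With the pyramidal markers Cacng2 gave r = 0.12 (permutation p = 0.5, adjusted p = 0.5) and rho = 0.19 (permutation p = 0.3, adjusted p = 0.4), and Scn1a r = -0.11 (permutation p = 0.5, adjusted p = 0.5) and rho = 0.03 (permutation p = 0.86, adjusted p = 0.86), with r of 0.02 and 0 without the 2 farthest libraries. Scn7a gave r = 0.23 (permutation p = 0.21, adjusted p = 0.28) and rho = 0.32 (permutation p = 0.094, adjusted p = 0.19) with them, and r was 0.43 without the 2 farthest libraries. In all 8 relations were tested, 4 genes by 2 marker lists, by a 2-sided test with 100000 permutations within groups, and adjusted p-values are over these 8. The genes and markers come from the same libraries and share their depth and scaling.

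Scn2b, whose product links to the pore by a disulfide bond, had 0 counts in all 32 libraries, which allows up to 0.0174 CPM (3 counts of 173 M) over the pooled libraries. In RefSeq (GRCm38.p6) Scn2b lies at chr9:45117876-45130070, wholly inside the long noncoding gene Gm10684 at chr9:45107176-45135606. How the counting treated reads in overlapping genes is not stated in any source used, and its part in this 0 was not tested. Scn3b was at 23 CPM over all libraries and did not pass in any comparison.

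Which libraries were high depended in part on the scaling. In CPM, ELS GFP replicate 2 was the highest of its 8 libraries for 14 of the 34 tested genes, and Standard Dot1l overexpression replicate 1 for 13 of 34. Standard GFP replicate 8 led for 11 genes, and ELS Dot1l knockdown replicate 5 for 9. By plain library size ELS GFP replicate 2 led for 13 genes and Standard GFP replicate 8 for 16, while overexpression replicate 1 led for 6 and was lowest for 12. How often each library led over all genes was not computed. Single libraries stood out there too. Among 14016 genes, ELS GFP replicate 2 exceeded the other libraries of its group together, in CPM, for 335 genes. That number was 391 for overexpression replicate 1, 15 for Standard GFP replicate 8, 112 for knockdown replicate 5 and 501 for Standard GFP replicate 5. The summed channel level was 5792 CPM in overexpression replicate 1, with its factor of 0.53, and 4941 in ELS GFP replicate 2, with a factor of 0.882. As a share of raw counts the channel genes were 0.306% in the former, below its group mean of 0.312%, 0.434% in the latter and highest, at 0.49%, in Standard GFP replicate 8. The pyramidal marker sum of overexpression replicate 1 was likewise the highest in CPM, at 486, but at 257 per 1e+06 counts by plain library size it lay below overexpression replicate 3, at 287.

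**Figure D3:**
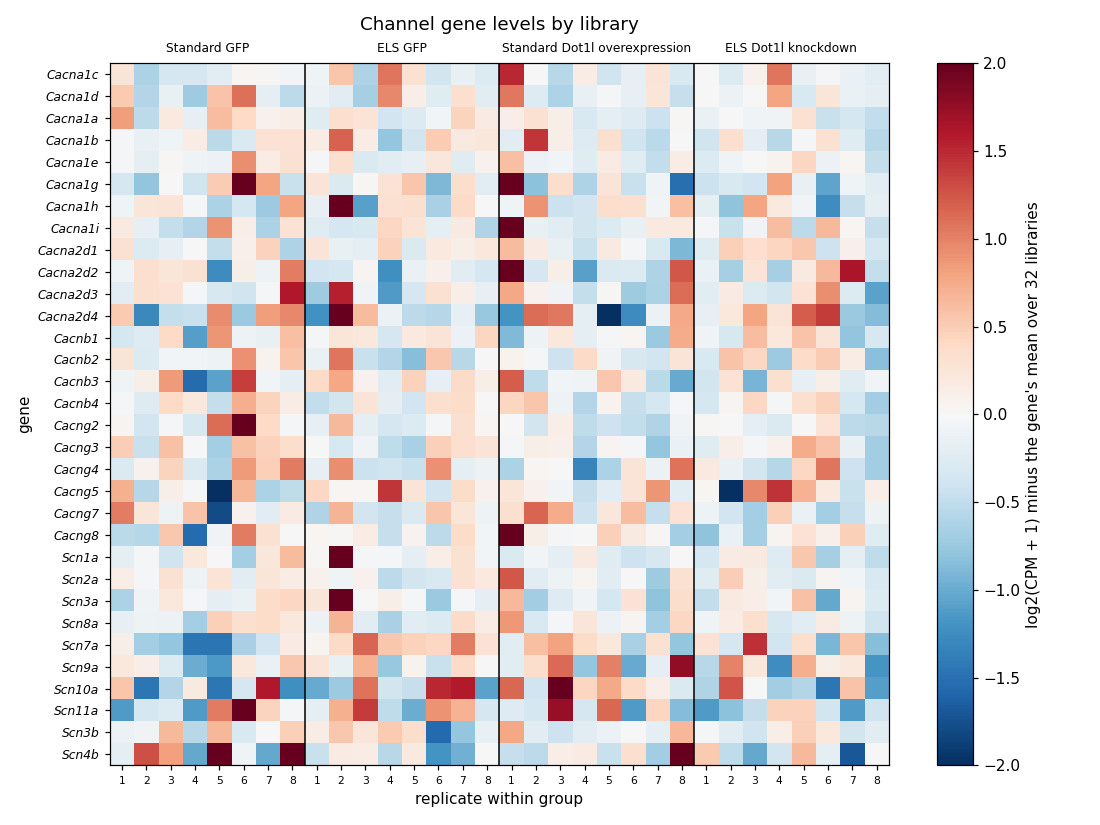
Level of 32 of the 34 tested channel genes (rows, ordered by role) in each of the 32 libraries (columns, by group and replicate), as log2(CPM + 1) minus the gene's mean over all libraries (colour, red above and blue below). Red cells mark ELS GFP replicate 2 and overexpression replicate 1, the highest of their groups for 14 and 13 of the 34 genes in CPM, though overexpression replicate 1 led for 6 by plain library size. The same count over all genes was not made.

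Of 36 partner genes (anchors, FGF homologous factors, release-site scaffolds, calcium sensors, calcium release channels and AMPA receptor subunits), 33 were tested and none passed after adjustment. Between ELS and Standard GFP 21 of 33 were lower (63.6%, beside 51.2% of all genes) and 1 had an unadjusted p under 0.05 (3.03%, beside 11.7%), namely Stac2, an adaptor that slows inactivation of L type channels, at 0.68 on the log2 scale (SE 0.31, adjusted p = 0.368). With overexpression 25 of 33 were lower (75.8%, beside 48.5%) and 1 had an unadjusted p under 0.05 (3.03%, beside 10.9%), namely Nedd4l, a ubiquitin ligase, at -0.43 (SE 0.19, adjusted p = 0.386). Between knockdown libraries and ELS GFP 24 of 33 were lower (72.7%, beside 49.8%) and 2 had an unadjusted p under 0.05 (6.06%, beside 6.18%), Stac2 at -0.67 (SE 0.3, adjusted p = 0.747) and Stac at -1.2 (SE 0.49, adjusted p = 0.638). The Stac2 values of 0.68 and -0.67 share the ELS GFP libraries, so they are not independent.

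H3K79me2 peaks were annotated to 23 of the 40 channel genes in the Standard list and to 24 in the ELS list, with 23 in both. Among the 34 genes tested for RNA it was 23 (67.6%) in each list, beside 58.5% and 54.2% of the 13988 tested genes with a distinct symbol, matched by symbol or listed synonym. Because there is 1 list per rearing, differences between lists have no replicate check and no test. Scn2b alone had a peak in 1 list only, of 0.38 kb at chr9:45124166-45124546 in the ELS list, at the authors' fold enrichment of 1.88. Of the 12673 genes named in either list, 2.97% were in the ELS list only and 11.2% in the Standard list only. The 16 genes in neither list included Cacna1f, Cacna1s, Cacna1g, Cacnb3, Cacng1, Cacng5, Cacng6, Cacng7, Cacng8, Scn4a, Scn7a, Scn9a, Scn10a and Scn11a. Among the 16 were all 6 sodium pore genes outside the brain class and 5 of the 6 genes that failed the filter on low counts, while all 4 brain sodium pores, all 4 alpha2delta genes and all 3 P/Q, N and R type pores carried peaks.

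Covered length was shorter in the ELS list at 23 of the 23 genes with peaks in both, where 91.5% of the 10879 genes with peaks in both lists were shorter. The median ratio of ELS to Standard length was 0.699 over the channel genes and 0.732 over all genes, so the shortening was near that of the lists as wholes. In sum the channel genes held 1218 kb in 1396 Standard peaks and 840 kb in 1256 ELS peaks. The Standard list as a whole covered 126 Mb in 117819 peaks with a median width of 512 bases, and the ELS list 92.6 Mb in 106374 peaks with a median width of 478. Of the channel peaks, 912 of 1396 in the Standard list (65.3%) overlapped an ELS peak by at least 1 base, and 1151 of 1256 in the ELS list (91.6%) overlapped a Standard peak, beside 62.8% and 90.9% of peaks at all genes.

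Cacna1c carried the largest covered length, with 229 kb in 171 Standard peaks, or 37.6% of its 609 kb span, and 181 kb in 186 ELS peaks. By share of span, Cacng4 (50%), Cacng3 (43.5%) and Cacnb4 (41.6%) lay above it in the Standard list. Cacna1c ranked 12 of 12297 genes by covered length in the Standard list and 11 of 11255 in the ELS list. Its strongest Standard peak, chr6:119096616-119099006, had a fold enrichment of 2.81 and lay 10.2 kb inside an annotated transcript start. Its widest, chr6:118868775-118878221, measured 9446 bases. The gene had more peaks in the ELS list than in the Standard list, and they were narrower in sum.

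The next 4 by Standard length were Cacna2d3, Cacnb2, Cacnb4 and Cacna1e. Cacna2d3 went from 184 to 105 kb, a difference of -78.9 kb, the largest of the family, and its strongest Standard peak, chr14:29689491-29697268, had a fold of 2.62 and spanned 7777 bases. Cacnb2 went from 142 to 83.8 kb (-58.4 kb), and Cacna1c, with the third largest difference, changed by -48.4 kb. Cacnb4 had 103 kb and 76.7 kb, with its widest peak in nearly the same place in both lists, chr2:52640652-52645760 in Standard and chr2:52640691-52645737 in ELS. Cacna1e had 98.2 kb and 57.5 kb. No gene with peaks in both lists gained covered length.

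**Figure D4:**
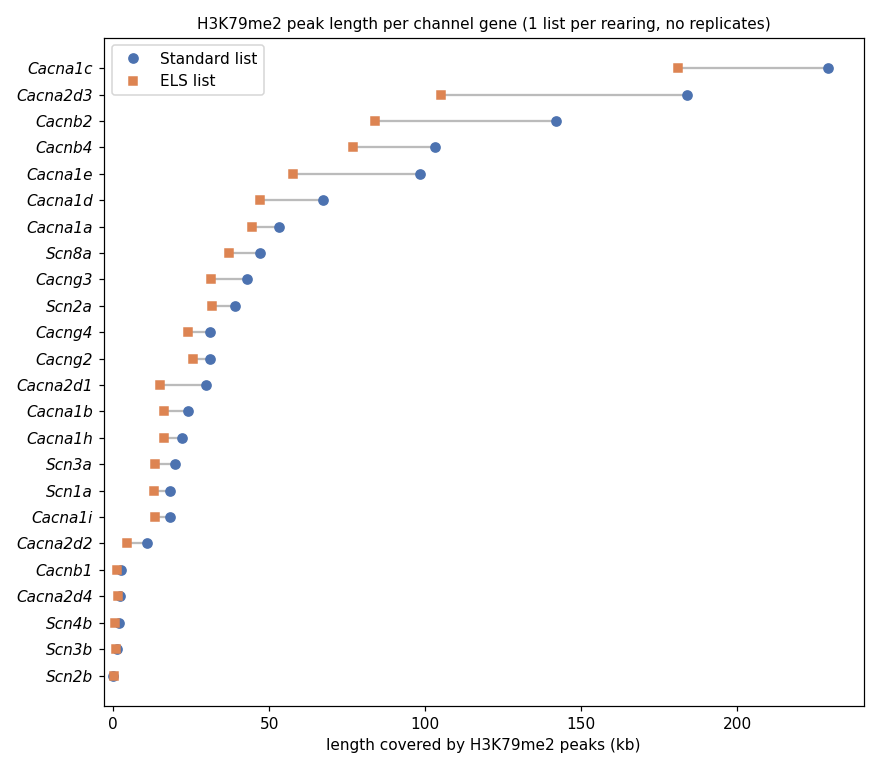
Length covered by H3K79me2 peaks (x axis, kb) at each of the 24 channel genes with a peak (y axis), in the Standard list (circles) and the ELS list (squares), 1 list each with no replicates. The ELS square lies to the left of the Standard circle at 23 genes, from Cacna1c (229 and 181 kb) to Scn3b (1.3 and 0.847 kb), as it did for 91.5% of all genes.

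The smallest ratios of ELS to Standard length were at Scn4b (0.262), Cacna2d2 (0.406) and Cacna2d1 (0.505), and the largest at Cacna1a (0.838), Cacng2 (0.819) and Scn2a (0.815), genes picked for these values. Scn4b, whose RNA is described above, held only 1.82 kb in 5 Standard peaks and 0.477 kb in 2 ELS peaks, near the floor of what a few peaks can show. Cacng2 had 31 and 25.4 kb, and Scn1a 18.2 and 13.1 kb. Scn7a had no peak in either list. The highest fold at any channel gene was 3.08, at Cacna1h in the Standard list (chr17:25415822-25417782), where the ELS peak chr17:25416010-25417747 had 2.5. The median fold of all peaks was 1.96 in the Standard and 1.92 in the ELS list.

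Summed over the channel genes, most peak width lay in the first 60% of the gene span, with the largest share between 20 and 40%. Genes with long covered length weigh most in this sum, and the same was not computed over all genes. Of the peak width at channel genes in the Standard list, 29.4% lay in peaks centred in the first 20% of the gene span, 30.9% between 20 and 40%, 23.6% between 40 and 60%, 14.7% between 60 and 80% and 1.15% in the rest. The ELS shares were 30.3%, 31.3%, 23.7%, 13.6% and 0.853%, in the same order. The outermost start of Cacna1c, at the window chr6:119196360-119196659, was 19.5 kb from the nearest Standard peak, while the start at chr6:119108446-119108745 was 0.819 kb from one. At Cacna1e the first Standard peak was centred 46.3 kb from the outermost start and the first ELS peak 164 kb from it. At Cacna1d no peak was centred between 8.43 and 146 kb from the outermost start in the Standard list, or between 10.5 and 148 kb in the ELS list. The Standard peak centred at 8.43 kb was the gene's widest, with 5906 bases, so it reached past its centre. Scn8a had peaks centred from 1.55 kb in the Standard list and from 1.5 kb in the ELS list.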

How the data were processed

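The channel genes and all gene lists were chosen with earlier results of these data known. RNA of 32 libraries (4 groups of 8, from the labels) came as raw counts per Ensembl gene, which the authors had deposited without normalization, as the values show. The submitters' processing notes name the build mm10 and the tools HISAT2, featureCounts, FastQC and DESeq2, without roles or versions. Symbols matched 52403 of 52636 gene IDs. The counts were fitted with edgeR 4.0.16 (R 4.3.3): filterByExpr, TMM, robust quasi-likelihood test over all 32 libraries with a mean for each group (28 residual degrees of freedom), and Benjamini-Hochberg adjustment over 14016 genes at 0.05. CPM are the counts over TMM effective library sizes. CPM are not per gene length, so levels of different genes are not compared. The labels do not say how libraries relate to animals, so p-values measure the spread between these libraries, and counting limits cover counting error only. No 2 libraries of a group were identical or agreed within sampling noise (lowest chi-square per degree of freedom 5.83). The scripts were tested on simulated data.

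The deposited peak lists hold, per the file headers, a fold enrichment ratio and a q-value for each peak, both by the authors. No source used here names the peak caller or how libraries were combined. Repeated lines of a peak were merged, and overlap was computed with bedtools 2.31.1. Peak coordinates are printed as listed, and whether starts count from 0 or 1 is not given. In the lists Scn2a appears under its older symbol Scn2a1.

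Genes are named by a rule: the member with the highest mean CPM in each subfamily, members with an unadjusted p under 0.05, and for peaks the 5 longest, the 3 largest gains and losses and genes in 1 list only. Names beyond it say so or only complete a count. The values of 2 channel genes are not reported here, though both stay in the fits and counts. The alternatives were other normalization (RLE, plain library sizes), DESeq2 1.42.0, limma 3.58.1 (voom with quality weights), no filter, fewer groups, a block on the title number, libraries left out, and for peaks stricter q-values and folds and a larger overlap.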

Additional observations from a re-analysis of the deposited data

Results flagged for a closer look

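In groups of 8 libraries, 7 of 48 tests found 1 library separated from the rest by more than Dixon's 95% critical value for 8 samples on the log2 CPM scale. Independent normal values would give about 1 in 20. The tests share the same libraries, and some genes were included for their unadjusted p in these data. The share over all genes was not computed, so the count does not show a trait of the channel genes. Each was the highest library of its group in CPM. By plain library size, without the composition factor (a scaling chosen after seeing the data), 2 of the 7 remained past the critical value, Cacna1i and Scn1a. Cacna1c stood at 1317 CPM in Standard Dot1l overexpression replicate 1, where the next library had 551. That library's factor was 0.53, and by plain library size it had 696 per 1e+06 counts against 611 in the next. Cacna1c was at 969 CPM in ELS Dot1l knockdown replicate 4, where the next had 489, and by plain library size it was still the highest, with the next at 604. Cacna1i was at 239 CPM in the same overexpression replicate 1, with the next library at 61.3, and by plain library size at 126 against 58.9. Cacna1e was at 768 CPM in Standard GFP replicate 6, with the next at 500. The factor of that library was 0.565, and by plain library size it had 433 against 610 in replicate 8, so it was no longer the highest. Cacna2d3 was at 744 CPM in Standard GFP replicate 8, with the next at 303 (908 and 366 by plain library size). Scn4b was at 125 CPM in Standard Dot1l overexpression replicate 8, with the next at 27.5 (120 and 30.6 by plain library size), and that library had a medium spiny neuron marker sum of 3095 CPM, the highest of its group. Scn1a was at 333 CPM in ELS GFP replicate 2, with the next at 74.5 (292 and 70.3 by plain library size).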

How the results depend on the processing

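No channel gene with an adjusted p passed 0.05 under the 12 RNA alternatives, and DESeq2 gave Cacng8, Scn7a and Scn11a none between ELS and Standard GFP. Plain library sizes, and leaving out ELS GFP replicate 2 or overexpression replicate 1, were chosen after seeing the data. Over all genes, where edgeR called 0, DESeq2 called 85 between ELS and Standard GFP, 41 with overexpression and 2 with knockdown, and edgeR without libraries under 1 M counts called 7 and 18 in the first 2. The 4 channel genes at an unadjusted p under 0.05 between ELS and Standard GFP became 7 with limma and 2 without Standard GFP replicate 6. The 1 with overexpression became 2 without libraries under 1 M counts, 3 without the library that dominated most genes of each group, and 2 without overexpression replicate 1. The 1 with knockdown became 2 under RLE, DESeq2, and with shallow, dominating or overexpression replicate 1 libraries left out, and 0 with plain library sizes, when only the groups compared were fitted or when ELS GFP replicate 2 was left out. The median log2 fold change of the channel genes lay between -0.16 and 0 for ELS, -0.18 and 0.05 for overexpression and -0.09 and 0.05 for knockdown, the last with plain library sizes, which moved the knockdown median of all genes from 0 to 0.11. Scn1a between ELS and Standard GFP turned from 0.63 to just below 0 (0 as rounded) without the dominating libraries. Scn4b stayed between -1.46 and -1.12 and Scn7a between 1.11 and 1.71, with adjusted p of 0.122 to 0.682 and 0.19 to 0.692 (Scn7a without DESeq2, which gave it none), and Cacng2 reached an adjusted p of 0.0611 with DESeq2 for overexpression, the lowest of its range up to 0.992. Standard GFP replicate 8, at 107 CPM of Scn4b, stayed in under every alternative. The Scn4b range therefore does not show how far the difference rests on Standard GFP replicates 5 and 8 together. The title numbers do not pair libraries (mean correlation of deviations 0.03 for the same number and -0.01 for others), and with the title number as a replicate block 3, 1 and 1 channel genes had an unadjusted p under 0.05 and no gene was called. With peaks at or above a fold of 1.94, the median ratio of ELS to Standard length was 0.569 and 53.6% of Standard peaks were shared, and with an overlap of at least 50% of the shorter peak, 61% of Standard and 86.6% of ELS peaks were shared. Depth is low for Scn7a, Scn10a and Scn11a, which had 270 to 468 counts each over 32 libraries.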
